A study of Pyrus betulifolia with 6 samples.

Results

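The boron transporter (BOR) genes of Pyrus betulaefolia root tips are described here under B deficiency. They are the 10 genes, of 37815 in the deposited expression table, whose description names a boron transporter. All 10 carry the HCO3- transporter family domain, and no other gene in the table has this domain or such a description. By the name of the best protein match, 7 are of the BOR2 type, 2 of the BOR4 type and 1 of the BOR6 type, and none is named BOR1. These names come from sequence likeness, and no sequences were compared here. They do not show that BOR1-like genes are absent, and the activity of the pear proteins was not measured. P. betulaefolia is a pear used as rootstock, and the plants were wild type seedlings in nutrient solution. For the B deficiency group the solution held 0 mM boron for 24 h, and for the control group it held 0.045 mM boron. Each group has 3 libraries from root tips, and values are given in the order of library 1, 2 and 3. The methods give 5 harvested plants per treatment and do not say how plants were divided among libraries, so p-values measure the spread between these libraries.

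BOR proteins are plasma membrane exporters that move borate out of the cell against its gradient, and they are related to the bicarbonate transporters of animals. In Arabidopsis, boric acid enters root cells through the channel NIP5;1 and BOR1 passes boron on towards the xylem. Arabidopsis BOR2 serves the cross-linking of the pectin rhamnogalacturonan II by borate in the cell wall, which root elongation needs when boron is scarce. Arabidopsis BOR4 exports boron out of the root and is known for tolerance of excess boron.

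Expression is given as FPKM, the fragments of a gene corrected for its length and for the depth of the library. Levels of different genes are set side by side on this scale. The reads were mapped to another pear species, and whether close copies shared or lost reads was not tested, so such rankings are approximate. The FPKM summed to between 951246 and 971102 per library, and read counts were not used, so no counting interval is given. Sums this even between libraries are unusual for FPKM, and the unit is given as the deposited table names it. Across genes, the log2 values of B deficiency library 2 correlated at 0.959 and 0.962 with the other two libraries of its group, against 0.975 to 0.976 for every other pair within a group. Values without this library are therefore also given where they differ. By the protein named in their description, 20 genes were listed here as root markers, and 17 were tested. They moved in both directions, and they are given by marker further below. Among them PLT2 (LOC103963467), a regulator of the root meristem in Arabidopsis, had 28.4 to 30.4 FPKM in B-deficient root tips, against 32.5 to 32.7 FPKM in control root tips. Of 32 genes described as chlorophyll-binding or small RuBisCO proteins, 21 averaged under 0.5 FPKM and 4 were listed at 0 in all libraries. A single RuBisCO gene (LOC103928816) held 88.5% of the summed level of that list, which was 579 to 639 FPKM in B-deficient root tips, against 575 to 610 FPKM in control root tips.

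The BOR genes moved in different directions under B deficiency. A BOR2 gene (LOC103964916) fell to 0.399 of its control level, while BOR2 genes LOC103961247 and LOC125478940 and the BOR4 gene LOC103926570 were 1.33, 1.26 and 1.48 times as high as in the control. These 4 genes had an adjusted p under 0.05 from limma, but only LOC103964916 also reached the minimum log2 fold change of 1. For LOC125478940 the adjusted p rose above 0.05 in several fits with a library left out. The other BOR2 genes tested, LOC103956856, LOC125477335 and LOC103953010, had an adjusted p above 0.05. The summed level of the BOR2 genes differed by less than the spread between libraries.

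LOC103964916, described as a probable boron transporter 2, had 6.22, 8.63 and 6.15 FPKM in B-deficient root tips, against 17.6, 17.4 and 17.7 FPKM in control root tips. Every B deficiency library lay below every control library, and the highest of them was library 2. The log2 fold change was -1.33 (standard error 0.135, 95% interval -1.65 to -1.01, adjusted p = 0.000555 from limma). Genes were called where the log2 fold change reached 1 in either direction and the adjusted p was under 0.05. The test used log2(FPKM + 0.1) of the 28129 genes that averaged 0.5 FPKM or more. LOC103964916 was the only member called, and 3.83% of all genes tested were called lower. Of the genes tested, 3.10% had a log2 fold change below that of LOC103964916. It was called in every fit with a library left out, with log2 fold changes from -1.49, without B deficiency library 2, to -1.25. In bulk root tips, fewer cells that express a gene and less of its RNA per cell cannot be told apart.

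**Figure D1:**
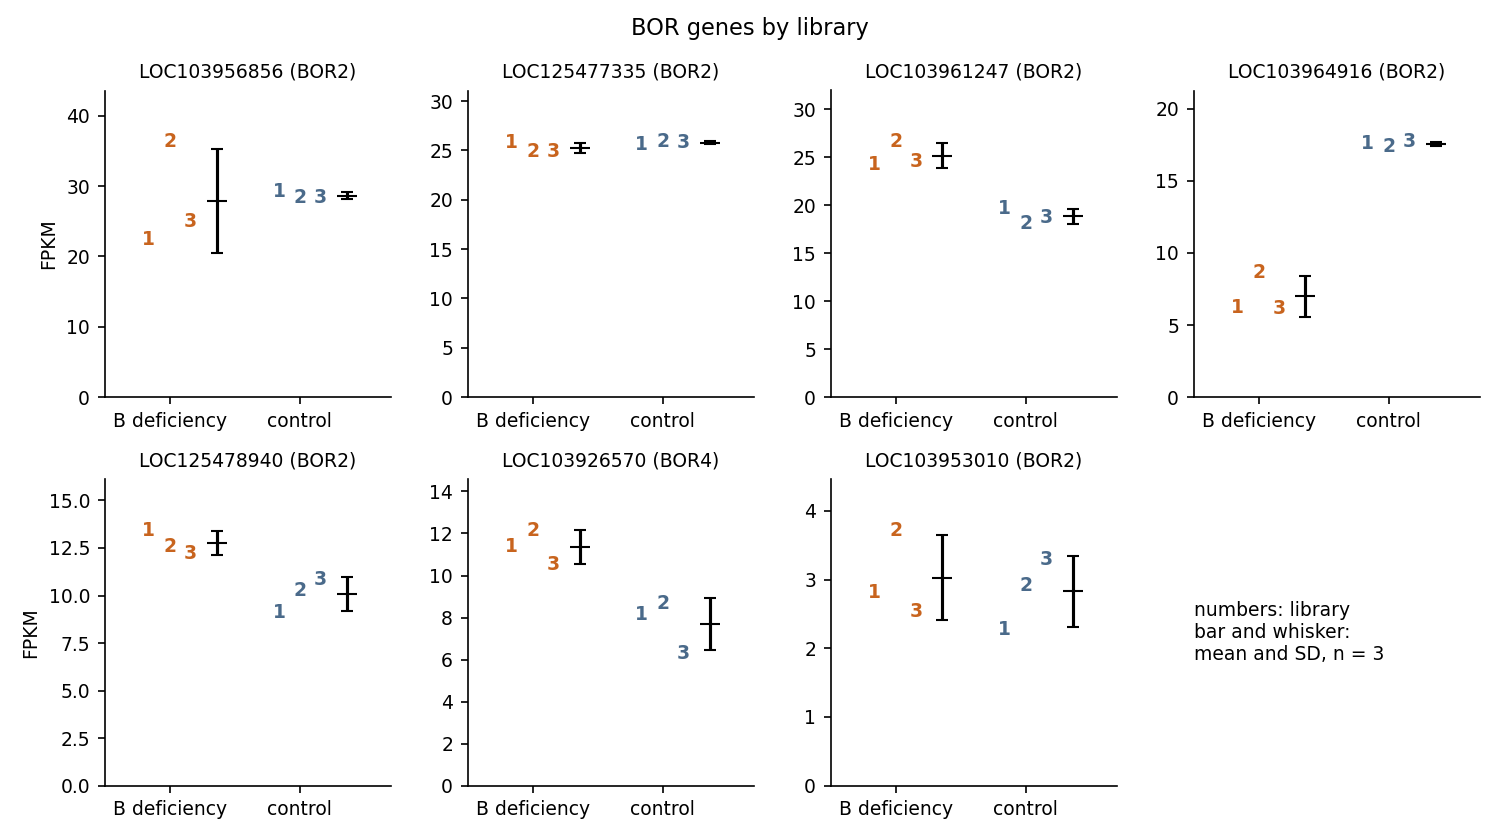
FPKM of the 7 BOR genes tested, with B deficiency at the left and control at the right of each panel; each number is the value of that library, and the bar with whiskers is the mean and SD of 3 libraries. LOC103964916 sits between 6.15 and 8.63 FPKM in B deficiency and between 17.4 and 17.7 FPKM in the control, while LOC103961247, LOC125478940 and LOC103926570 lie higher in every B deficiency library than in any control library.

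LOC103961247, also a probable boron transporter 2, had 24.3, 26.7 and 24.6 FPKM in B-deficient root tips, against 19.7, 18.2 and 18.8 FPKM in control root tips. The groups did not overlap. Its log2 fold change was 0.41 (standard error 0.0679, adjusted p = 0.00439 from limma), which is under the minimum fold. With each library left out in turn, the adjusted p was between 0.00359, without B deficiency library 2, and 0.0244.

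LOC125478940, described as boron transporter 2, had 13.4, 12.6 and 12.2 FPKM in B-deficient root tips, against 9.12, 10.3 and 10.8 FPKM in control root tips. The groups did not overlap here either, but the nearest libraries were close. The log2 fold change was 0.34 (standard error 0.0913, adjusted p = 0.0315 from limma). The adjusted p was above 0.05 without B deficiency library 1 (0.0950) or 3 (0.0577) and without control library 1 (0.0999) or 2 (0.0798).

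The BOR4 gene LOC103926570 had 11.4, 12.2 and 10.5 FPKM in B-deficient root tips, against 8.16, 8.65 and 6.28 FPKM in control root tips. All B deficiency libraries were higher, and control library 3 was the lowest of all. The log2 fold change was 0.57 (standard error 0.134, adjusted p = 0.0192 from limma), with an adjusted p of 0.0546 without B deficiency library 1. The annotation of this gene also lists chromatin organization, chromatin binding and RNA binding, terms that the other 9 members lack. In all, 3 of the 7 members tested were higher at an adjusted p under 0.05 at any fold, and 1 was lower. Over all genes tested, 12.0% were higher and 15.4% were lower at this level, and 4.37% were called higher, a group that held 0 members. The groups did not overlap in 4 of the 7 members tested. The share of all genes tested without overlap was not counted, so this separation is not read as a trait of BOR genes.

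LOC103956856, the BOR gene with the highest mean, had 22.5, 36.3 and 25.0 FPKM in B-deficient root tips, against 29.2, 28.4 and 28.3 FPKM in control root tips. B deficiency library 2 lay above all control libraries, and libraries 1 and 3 lay below them. The log2 fold change was -0.068 (95% interval -0.45 to 0.32, adjusted p = 0.795 from limma). Without B deficiency library 2 it was -0.27 with an adjusted p of 0.0150, still under the minimum fold.

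LOC125477335 had 25.8, 24.9 and 24.9 FPKM in B-deficient root tips, against 25.6, 25.9 and 25.8 FPKM in control root tips. Its groups overlapped, and its SD was the smallest of the 7 BOR genes tested in each group. The 95% interval of its log2 fold change ran from -0.16 to 0.10 (estimate -0.031, adjusted p = 0.712 from limma), and the estimate was 0.019 with median-of-ratios scaling between libraries. LOC103953010, which also carries a phosphoinositide-interacting protein domain that no other member has, had 2.81, 3.72 and 2.54 FPKM in B-deficient root tips, against 2.28, 2.91 and 3.29 FPKM in control root tips. Its log2 fold change was 0.091 with a wide 95% interval from -0.38 to 0.57 (adjusted p = 0.775 from limma), and it was -0.063 without B deficiency library 2.

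**Figure D2:**
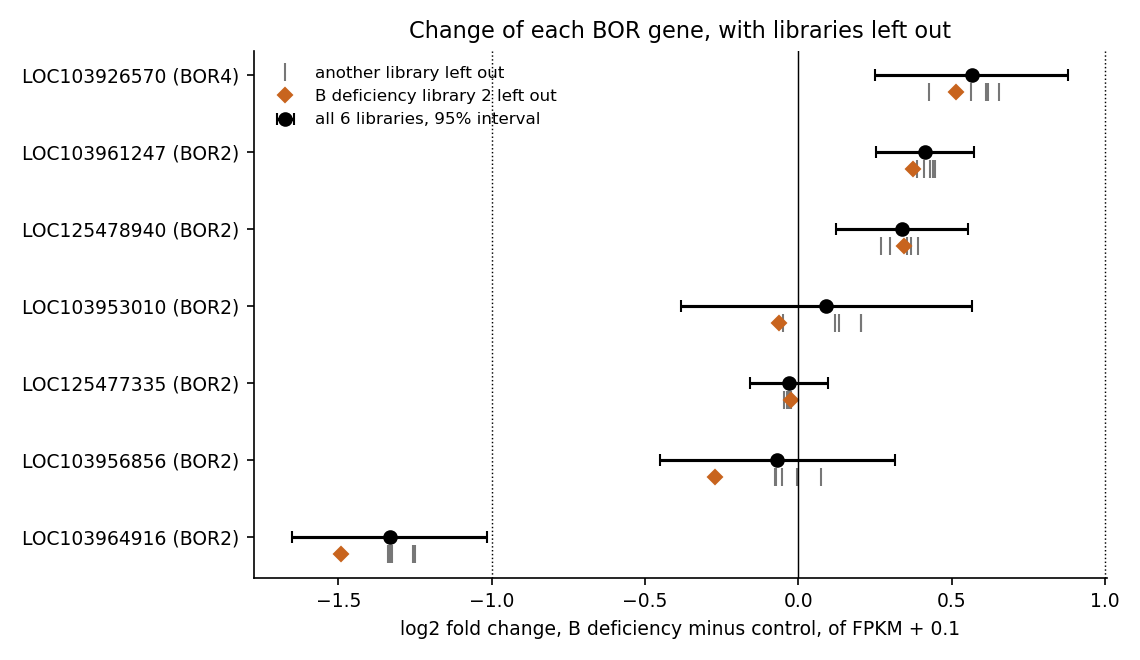
Log2 fold change of FPKM + 0.1, B deficiency minus control, for the 7 BOR genes tested (black points with 95% intervals, all 6 libraries), with the estimates when a library is left out as ticks and diamonds and dotted lines at a log2 fold change of -1 and 1. LOC103964916 lies past -1 in every fit, and LOC103956856 moves to -0.27 when B deficiency library 2 is left out.

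The other 3 members lay under the mean of 0.5 FPKM and were not tested. The BOR6 gene LOC103927569 had 0.19, 0.14 and 0.22 FPKM in B-deficient root tips, against 0.17, 0.49 and 0.15 FPKM in control root tips. The second BOR4 gene, LOC103940078, had 0.03, 0 and 0.06 FPKM in B-deficient root tips, against 0.06, 0.08 and 0.03 FPKM in control root tips. The groups overlapped in both genes. In a fit with no minimum, their log2 fold changes had 95% intervals from -1.21 to 0.65 and from -1.02 to 0.46. The BOR2 gene LOC125479043 was listed at 0 in all 6 libraries. Its closest UniProt protein is the same as that of LOC125478940, whereas the other 8 members each have a closest protein of their own. The sequences of these 2 genes were not compared, and whether reads were divided between them was not tested.

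The order of the BOR genes by level differed between the groups. In B deficiency, LOC103956856 (27.9 ± 7.38 FPKM, SD, n = 3), LOC125477335 (25.2 ± 0.497) and LOC103961247 (25.2 ± 1.27) did not differ beyond their spread. LOC125478940 (12.7 ± 0.630), LOC103926570 (11.4 ± 0.810), LOC103964916 (7.0 ± 1.41) and LOC103953010 (3.02 ± 0.618) followed. In the control, LOC103956856 (28.6 ± 0.482 FPKM) and LOC125477335 (25.8 ± 0.153) led without overlap, and LOC103961247 was the third at 18.9 ± 0.777 FPKM. LOC103964916 was the fourth at 17.6 ± 0.155 FPKM, close below LOC103961247. LOC125478940 (10.1 ± 0.874), LOC103926570 (7.70 ± 1.25) and LOC103953010 (2.83 ± 0.510) came after it, in the same order as in B deficiency. Among all genes tested, the mean level of LOC103956856 was higher than that of 79.0% of genes, that of LOC103964916 higher than 58.8% and that of LOC103953010 higher than 23.3%.

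**Figure D3:**
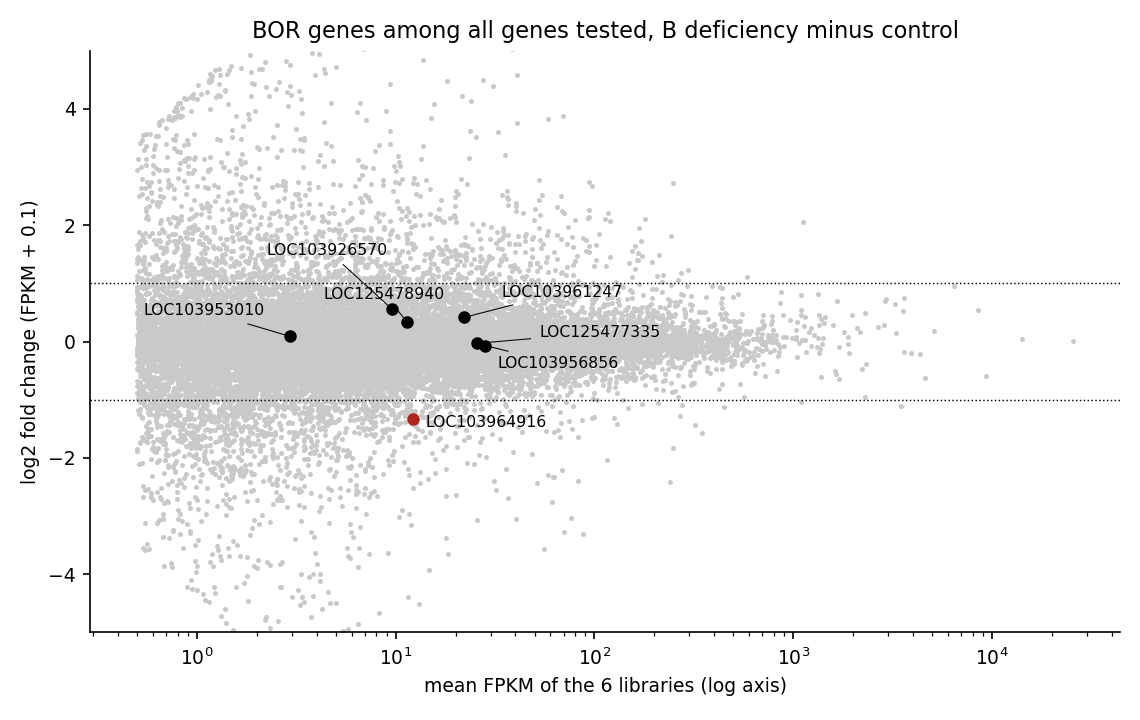
Log2 fold change of FPKM + 0.1, B deficiency minus control, against the mean FPKM of the 6 libraries (log axis) for all 28129 genes tested, with the 7 BOR genes tested as large points and dotted lines at a log2 fold change of -1 and 1; 90 genes beyond a log2 fold change of 5 in either direction are not shown. LOC103964916 is the single BOR gene past -1, and no BOR gene is past 1.

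Levels within a library were compared between BOR genes of the same type, as log2 ratios of FPKM + 0.1. For genes well above 0.1 FPKM, such a ratio depends little on the scaling of that library. Relative to LOC103961247, the log2 ratio of LOC103964916 was -1.95, -1.62 and -1.98 in B-deficient root tips, against -0.17, -0.06 and -0.08 in control root tips. These BOR2 genes were thus near the same level in every control library and far apart in every B deficiency library. Relative to LOC125478940, LOC103964916 had log2 ratios of -1.10, -0.54 and -0.98 in B-deficient root tips, against 0.94, 0.75 and 0.70 in control root tips. The order of these 2 genes was opposite in the groups. Against each of the 5 other BOR2 genes tested, the log2 ratio of LOC103964916 was lower in B deficiency, with differences between -1.75 and -1.26. All 5 ratios share the values of LOC103964916, so they restate its fall and are not separate support for it. Each of these differences had p = 0.1 in a 2-sided exact permutation test, the smallest that 3 libraries against 3 allow, and an adjusted p of 0.178 over 16 pairs. In all, 9 pairs reached this smallest p, and 4 of them did not include LOC103964916. Among these 4 was the BOR4 pair of LOC103926570 and LOC103940078. Its ratio rests on a gene at 0 to 0.08 FPKM, which was under the minimum mean. By the same test, LOC103961247 and LOC125478940 differed from each other by 0.076 in their change (exact p = 0.6). Of 22 pairs within a type, 6 were left out because LOC125479043 was listed at 0.

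The summed FPKM of the 7 BOR2 genes was 95.02, 113 and 95.5 in B-deficient root tips, against 103, 103 and 105 in control root tips. B deficiency library 2 lay above the control range and libraries 1 and 3 lay below it. The means were 101 ± 10.2 and 104 ± 0.849 FPKM (SD, n = 3 each), a ratio of 0.975. The log2 ratio of -0.037 was -0.12 without B deficiency library 2, 0.0056 without library 1, 0.0027 without library 3 and 0.013 with median-of-ratios scaling, so its sign was not settled. The BOR2 sum without LOC103964916 was 88.8, 104 and 89.3 FPKM in B-deficient root tips, against 85.9, 85.7 and 87.0 FPKM in control root tips. LOC103964916 was left out of this sum because it fell, so the sum is no test of the other BOR2 genes. Of the summed FPKM of all 10 members, LOC103964916 held 6.17% ± 0.627 in B-deficient root tips, against 15.7% ± 0.219 in control root tips.

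The BOR4 sum, nearly all of it from LOC103926570, was 11.4, 12.2 and 10.6 FPKM in B-deficient root tips, against 8.22, 8.73 and 6.31 FPKM in control root tips, a ratio of means of 1.47. The share of BOR4 in all BOR FPKM was 10.1% ± 0.501 in B-deficient root tips, against 6.93% ± 1.11 in control root tips, and the BOR2 share was 89.7% ± 0.526 in B-deficient root tips and 92.8% ± 1.23 in control ones. All 10 members together had 107, 125 and 106 FPKM in B-deficient root tips, against 112, 112 and 111 FPKM in control root tips. The log2 ratio of the means was 0.012 with all libraries and -0.071 without B deficiency library 2, which alone lay above the control range. No test was made on these sums.

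**Figure D4:**
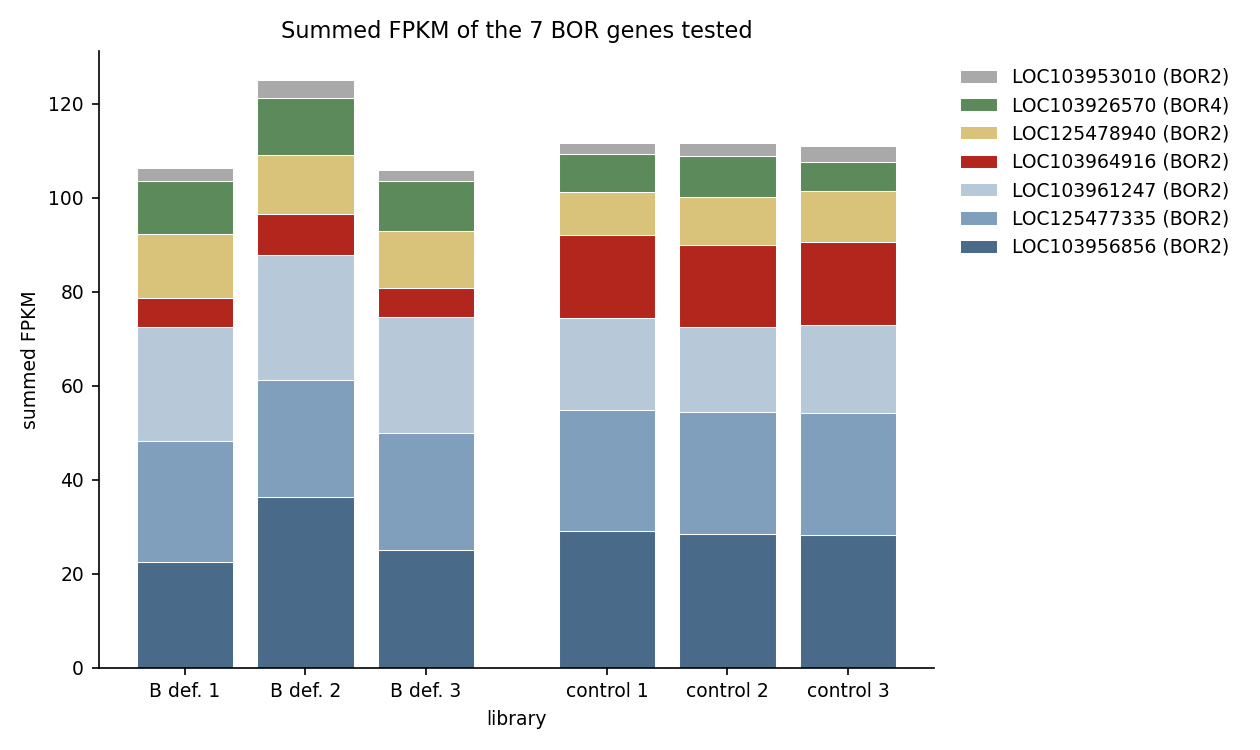
FPKM of the 7 BOR genes tested, stacked by library, with the 3 B deficiency libraries at the left and the 3 control libraries at the right. The stacks are of like height apart from B deficiency library 2, and the red segment of LOC103964916 is 6.15 to 8.63 FPKM in B-deficient root tips, against 17.4 to 17.7 FPKM in control root tips.

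Some markers of root cell types also differed between the groups, beside 12.0% of all genes tested that were higher and 15.4% that were lower at an adjusted p under 0.05. Genes for Casparian strip membrane proteins mark the endodermis in Arabidopsis, and 4 of the 6 tested were higher at an adjusted p under 0.05 from limma, with summed levels of all 9 genes of 124 to 168 FPKM in B-deficient root tips, against 113 to 119 FPKM in control root tips. SOMBRERO genes mark the root cap in Arabidopsis, and both were lower (log2 fold changes -0.71 and -0.51), with sums of 12.7 to 16.1 FPKM in B-deficient root tips, against 19.5 to 23.5 FPKM in control root tips. Of 4 SHORT-ROOT genes, 1 was lower at this level, and 0 of 3 SCARECROW and 0 of 2 PLT2 genes passed. The SHORT-ROOT sums were still lower, at 30.24 to 36.92 FPKM in B-deficient root tips, against 43.23 to 44.55 FPKM in control root tips. The PLT2 sums were 32.34 to 34.89 FPKM in B-deficient root tips, against 38.17 to 39.14 FPKM in control root tips. The SCARECROW sums overlapped, at 14.47 to 16.13 FPKM against 14.47 to 16.68 FPKM. With a library left out in turn, 0 to 5 Casparian strip genes were higher, with 0 when B deficiency library 3 or control library 2 was left out and 5 without B deficiency library 2. In the same fits, 1 or 2 SOMBRERO genes were lower, with 2 only without B deficiency library 2, and 0 to 2 SHORT-ROOT genes were lower, with 0 when any control library was left out. The part of these differences in the BOR results was not tested.

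The NIP genes, which include the boric acid channels that bring boron into root cells, number 7 in the table, and 5 were tested. The NIP5-1 gene LOC103962656 had 87.0, 110 and 81.5 FPKM in B-deficient root tips, against 16.4, 16.6 and 14.8 FPKM in control root tips, and it was the only NIP gene called. Its log2 fold change of 2.53 (adjusted p = 2.57e-05 from limma) stands beside -1.33 for LOC103964916, and its level lay above that of every BOR gene in each B deficiency library. Another gene described as NIP5-1, LOC103950753, had 40.6, 65.8 and 42.4 FPKM in B-deficient root tips, against 32.8, 31.2 and 32.7 FPKM in control root tips. It was higher by a log2 fold change of 0.59 (adjusted p = 0.0429 from limma), and its highest value was in library 2. Without that library the log2 fold change was 0.36 (adjusted p = 0.00178), and the adjusted p was 0.0517 without B deficiency library 3 and 0.106 to 0.123 without a control library. LOC103944046, a NIP1-1-like gene, was lower by a log2 fold change of -0.79 (adjusted p = 0.0284 from limma), but the adjusted p was 0.0507 once B deficiency library 1 was left out, 0.0984 for control library 2 and 0.0952 for control library 3. These 2 genes were named after their values were seen. The median log2 fold change of the 5 NIP genes tested was -0.38, against -0.054 over all genes tested. With so few genes, this median is the value of a single gene that did not pass (adjusted p = 0.295 from limma), so it shows no shift of the family. The summed level of all 7 was higher, at 135 to 187 FPKM in B-deficient root tips, against 64.1 to 64.7 FPKM in control root tips.

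Borate joins chains of rhamnogalacturonan II, and 17 genes listed by description for its sugars and their assembly were tested. Whether these genes serve only this pectin was not tested. Of these, 1 was called lower and 0 were called higher, and the median log2 fold change was 0.16. Over all genes tested, 3.83% were called lower and 4.37% higher. The called gene, LOC103953328, described as a 2-dehydro-3-deoxyphosphooctonate aldolase-like gene of the route to the sugar KDO, had 2.59, 2.07 and 1.83 FPKM in B-deficient root tips, against 9.86, 6.28 and 7.93 FPKM in control root tips. Its log2 fold change was -1.83 (adjusted p = 0.000744 from limma). The most expressed gene of this list, LOC103954739 for a UDP-D-apiose/UDP-D-xylose synthase, had 150, 210 and 152 FPKM in B-deficient root tips, against 176, 175 and 175 FPKM in control root tips. As in LOC103956856, B deficiency library 2 was the highest of the 6 and libraries 1 and 3 were the lowest. Its log2 fold change was -0.059 (adjusted p = 0.763 from limma), and -0.22 (adjusted p = 0.000874) without library 2. At any fold, 2 genes of the list were higher and 2 were lower at an adjusted p under 0.05, against 12.0% and 15.4% of all genes tested. The higher genes, named after their values were seen, were LOC125473849 for a GDP-mannose 3,5-epimerase (log2 fold change 0.50) and LOC103964461 for a GDP-L-fucose synthase (0.23, with an adjusted p of 0.0510 without B deficiency library 1 and 0.0565 to 0.0643 without a control library), and the other lower gene was the aldolase LOC103940960 (-0.40).

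The genes whose log2 values over the 6 libraries were most like those of LOC103956856 had Pearson correlations of 0.995 to 0.997 with it. They were LOC103929712 (subtilisin-like protease SBT1.8), LOC103953588 (EXO70A1-like exocyst component), LOC103957618 (a serine/threonine-protein kinase-like protein), LOC125476893 (U-box domain-containing protein 16) and LOC103948053 (uncharacterized). LOC103929712 had 117, 158 and 122 FPKM in B-deficient root tips, against 138, 134 and 134 FPKM in control root tips. All 5 were highest in B deficiency library 2 and lowest in library 1, so this likeness rests on differences among libraries of the same group.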

How the data were processed

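The authors mapped the reads to the genome of Pyrus bretschneideri, another pear species, and deposited FPKM values rounded to 2 decimals for the 6 libraries. The methods name STAR and RSEM, while the submitters' processing notes name HISAT2 and Cufflinks 2.2.1 with mouse builds, so the program behind the values is uncertain. The sources used here do not name the annotation release. The values were in 2 tables with identical library columns, and 4 columns of group means and ratios were not used. Control columns were matched to samples by replicate number.

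Values were compared with limma 3.58.1 in R 4.3.3 (lmFit, eBayes with a trend) on log2(FPKM + 0.1). Fold changes are B deficiency over control, and p-values were adjusted by Benjamini-Hochberg over genes averaging 0.5 FPKM or more. The study's own count test could not be run on FPKM. Such fold changes understate the change of genes with low values. The step was run on simulated data with changes larger than those of the BOR genes, so that run does not test calls of their size. Log2 ratios between members were compared with exact permutation tests (scipy 1.17.1).

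Named genes were the 10 members, the most expressed gene and the largest called rise and fall of each pathway list, and the 5 genes most like the most expressed member. Genes outside this rule were a PLT2 gene and a RuBisCO gene given as tissue markers and 5 pathway genes that passed the test under the minimum fold, chosen after their values were seen. The members and lists were chosen with earlier results of these data known. The lists were matched on descriptions, and NIP7 ribosome proteins and GDP-L-galactose phosphorylases were removed once descriptions were seen. Alternatives were other pseudocounts, minimum levels and scalings, no trend, library weights, a replicate block, no minimum fold and each library left out.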

Additional observations from a re-analysis of the deposited data

How the results depend on the processing

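FPKM carry no counts, the groups have 3 libraries each, and 1 B deficiency library stands apart, which limits what can be told of genes near the thresholds. LOC103964916 was called in all 15 alternatives (log2 fold change -1.49 to -1.23, adjusted p 1.55e-05 to 0.00473 from limma). LOC103961247 kept an adjusted p under 0.05 in 15 of 15, LOC103926570 in 14 and LOC125478940 in 10. The number of members at this level was 2 to 5 with a library left out, against 4 with all libraries, and the 2 came without B deficiency library 1. Without the minimum fold change, 4 members were called, 3 of them higher, among 7693 genes, 3362 higher and 4331 lower. With a pseudocount of 1, 664 genes were called lower in place of 1076, and 896 were called higher in place of 1229. The log2 fold change near 0 changed sign for LOC125477335 with median-of-ratios scaling (0.019), for LOC103953010 with library weights (-0.041) and over the fits with a library left out (-0.063 to 0.20), and for LOC103956856 over those fits (-0.27 to 0.073). Causes were not tested. The replicate numbers are shared by the groups, but deviations of same-numbered libraries correlated at 0.04, 0.03 and -0.005. These values show no pairing by number, but they cannot exclude it, and the main fit treated the libraries as unpaired. With the replicate number as a block, 2176 genes were called in place of 2305, and LOC125478940 had an adjusted p of 0.0766.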
